A study of Mus musculus with 4 samples.

Results

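Fignl1, Ddc, Grb10, Cobl, Zpbp and Vwc2 are 6 genes that lie on either side of Ikzf1 on mouse chromosome 11. Ikzf1 encodes the zinc-finger transcription factor Ikaros and is the floxed gene of this study. The genes were chosen by symbol as neighbours of Ikzf1, after Fignl1 had been seen among the largest lower values in these data. Each was read from the array row (1 probe set, with 1 value per mouse) whose annotation gave exactly 1 gene symbol, and each of the 6 had a single such row, among 19938 genes with at least 1. The question was whether the lower value of Fignl1 is shared by the genes around it.

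The Cre+ mice (129 and 135) were Ikf/f Rosa26-CreERT2+; in them tamoxifen activates a Cre recombinase made from the Rosa26 locus, which is active in most cell types. The controls were Ikf/f without the recombinase (Cre-, mice 131 and 137). The floxed Ikzf1 alleles and the tamoxifen were thus common to both groups. Intraperitoneal doses of 50 mg/kg were given on each of 4 days, and the thymus was taken 24 h later. DN4 thymocytes, the last stage before CD4 and CD8 appear, were sorted and their RNA was hybridised to Affymetrix mouse gene arrays, with 1 array per mouse. The treatment note repeats the Cre+ genotype for all 4 samples, whereas the titles and the series' design give 2 mice of each genotype, and the titles were followed. By the series' design text, Ikaros protein was absent on western blots of the sorted Cre+ cells.

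The arrays were alike, with medians between 6.85 and 6.88 on the log2 scale and pairwise correlations across rows between 0.994 and 0.997. All 4 had the T lineage markers of the sort: 11 of 12 measured markers lay above the median row, among them Cd3e, Ptcra and Bcl11b, and only Cd44, which DN4 cells lack, lay below it. Il2ra, a marker of the preceding stage, was nevertheless at 11.07 and 10.71 in Cre+ mice and at 11.58 and 10.96 in Cre- mice. Markers of the sort itself also differed between the groups, none of them past limma's adjusted threshold over all rows. At an unadjusted p under 0.05 limma had 7 of the 12 T lineage markers, against 6.86% of all genes. Of these, Ptcra, Cd3e, Cd3g, Cd3d and Rag1 were higher in Cre+ mice, Cd3d by 0.66 (SE 0.08). Cd2 and Cd44 were lower, with differences of -0.52 (SE 0.14) and -0.42 (SE 0.10). All 3 measured markers of the following double-positive stage were also under this unadjusted p. Cd4 differed by 0.54 (SE 0.11), Cd8a by -0.61 (SE 0.21) and Cd8b1 by -0.27 (SE 0.08). The sum of log2 values over the T lineage list was 132.6 and 130.8 in Cre+ mice and 131.0 and 130.6 in Cre- mice, and over the double-positive list 27.5 and 28.1 in Cre+ mice and 27.8 and 28.5 in Cre- mice. Both lists hold markers that differed in opposite directions, which such a sum does not show. Of other cell types, 1 of 4 B cell markers (Cd79b), 2 of 5 myeloid markers (Lyz2 and Cd68), 1 of 3 natural killer markers (Gzma), 0 of 2 erythroid markers and 2 of 4 thymic epithelial markers (Epcam and Krt8) lay above the median row. Below the 25th percentile lay Cd79a and Ms4a1 of B cells, Adgre1 of macrophages, and Ncr1 and Klrb1c of natural killer cells. Lyz2 was at 7.56 and 7.59 in Cre+ mice and at 6.79 and 6.29 in Cre- mice, a difference of 1.04 (SE 0.18). The sum over the myeloid list was 30.7 and 31.1 in Cre+ mice and 29.8 and 29.6 in Cre- mice. Most of that came from Lyz2, since Csf1r, Cd68, Itgam and Adgre1 differed by 0.04, 0.02, 0.04 and 0.01. The sum over the B cell list was 26.4 and 26.6 in Cre+ mice and 26.7 and 27.7 in Cre- mice. Its markers went both ways, Cd79b by 0.25 (SE 0.09), Cd79a by -0.35 (SE 0.12), Ms4a1 by -0.42 (SE 0.29) and Pax5 by -0.19 (SE 0.10). The part of these markers in the values below was not tested. By Xist and Kdm5d, each group held 1 female (129 and 131) and 1 male (135 and 137). With 2 mice per group, the number of arrays limits the precision of every value.

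The 6 genes are unrelated in function and share a chromosomal neighbourhood. Fignl1 encodes an ATPase of the AAA family that acts in homologous recombination, the repair of broken DNA from an intact copy. Ddc encodes aromatic L-amino acid decarboxylase, which makes dopamine and serotonin, and Grb10 encodes an imprinted adaptor protein that restrains insulin and IGF receptor signalling. Cobl (cordon-bleu) encodes an actin nucleator, Zpbp a protein of the sperm acrosome that binds the zona pellucida, and Vwc2 (brorin) a secreted antagonist of bone morphogenetic proteins. Genes that lie close together on a chromosome can share chromatin domains and distant enhancers.

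Going outward from Ikzf1 in the order of the RefSeq gene table, Fignl1 came first on one side, followed by Ddc, Grb10 and Cobl. On the other side lay 4930512M02Rik and Spata48, followed by Zpbp and Vwc2. Ikzf1 is read from the plus strand and Fignl1 from the minus strand, so that the 2 genes converge, with their 3′ ends facing each other and their promoters at the outer ends. The promoter windows below run from 250 bases before to 50 bases after the start of the gene, from RefSeq on GRCm38.p6, 5′ to 3′ on the gene's own strand. They are shown for Fignl1, for its next neighbour Ddc (the start site nearer to Fignl1) and for Zpbp, the member with the next lowest difference. Capitals mark GGGAA on either strand, the core of the sequence that Ikaros binds.
Fignl1, chr11:11808913-11809212, minus strand: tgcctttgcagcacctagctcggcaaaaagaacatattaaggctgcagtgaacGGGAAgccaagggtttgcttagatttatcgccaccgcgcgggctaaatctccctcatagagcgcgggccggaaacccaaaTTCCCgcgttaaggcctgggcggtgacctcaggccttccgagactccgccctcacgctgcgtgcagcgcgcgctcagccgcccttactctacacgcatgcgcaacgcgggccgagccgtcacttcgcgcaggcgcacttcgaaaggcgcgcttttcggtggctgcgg
Ddc, chr11:11890359-11890658, minus strand: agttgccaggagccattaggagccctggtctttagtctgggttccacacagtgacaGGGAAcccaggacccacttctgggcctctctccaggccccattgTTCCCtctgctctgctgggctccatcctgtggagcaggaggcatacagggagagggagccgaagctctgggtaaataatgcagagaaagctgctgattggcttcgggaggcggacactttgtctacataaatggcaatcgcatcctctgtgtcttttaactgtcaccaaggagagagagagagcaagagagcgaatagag
Zpbp, chr11:11462370-11462669, minus strand: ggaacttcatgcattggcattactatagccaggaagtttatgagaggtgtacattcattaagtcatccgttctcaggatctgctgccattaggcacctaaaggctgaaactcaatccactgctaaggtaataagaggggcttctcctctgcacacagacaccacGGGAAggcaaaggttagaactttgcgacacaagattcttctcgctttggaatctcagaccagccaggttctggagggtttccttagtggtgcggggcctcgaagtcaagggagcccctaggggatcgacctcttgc
The windows of Fignl1 and Ddc each held these letters, on one strand or the other, at 2 places, and that of Zpbp at 1. These letters occurred in 62.7% of the 32851 windows in the table and in 5 of the 9 windows of the 6 genes. The longer TGGGAA, of which every match also holds GGGAA, was in 25.6% of all windows and in 1 of the 9, a window of Cobl. The shorter form was searched after the longer one. A match is a description of letters only. The windows also differed in CpG content. That of Fignl1 held 34 CpG dinucleotides, a number reached by 7.73% of all windows, beside a median of 7 over all windows. The printed windows of Ddc and Zpbp held 5 and 7. A high number was not particular to Fignl1, since the windows of Grb10 held 9 and 45 and those of Cobl 0 and 42. That of Vwc2 held 17, and those of Ikzf1 52 and 2.

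Fignl1 had log2 RMA values of 9.08 and 9.09 in Cre+ mice 129 and 135, against 10.26 and 10.12 in Cre- mice 131 and 137. Both Cre+ mice were lower than both Cre- mice, and the gap between the groups was many times the gap between mice of one genotype. The means were 9.09 ± 0.0061 in Cre+ mice and 10.19 ± 0.10 in Cre- mice (SD, n = 2 each), a difference of -1.10 on the log2 scale, or 2.15-fold lower. It was -1.18 between the females and -1.03 between the males. Since Fignl1 was picked for this difference, it is given as a description with no test. Of all 19938 genes, 5 had a difference at or below it, Fignl1 included (0.0251%), and just outside lay Clec12a at -1.08, Xlr at -1.05 and Nkg7 at -1.04. In sorted cells measured in bulk, fewer cells that express a gene and less RNA per cell cannot be told apart.

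**Figure D1:**
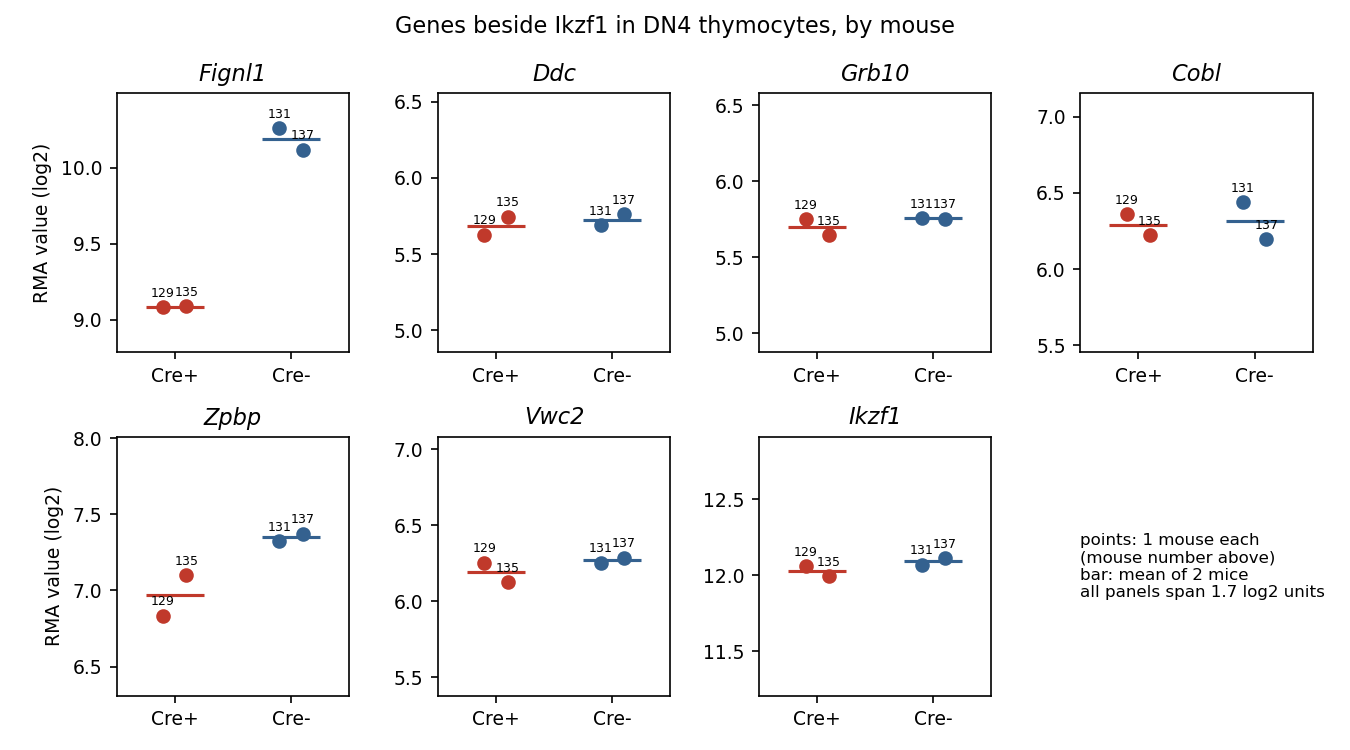
RMA values (log2, vertical axis) of the 6 genes and Ikzf1 by mouse, with Cre+ mice left of Cre- mice; points are single mice, bars are means of 2 mice, and the axes of all panels span the same range. Fignl1 is at 9.08 and 9.09 in Cre+ mice, apart from 10.26 and 10.12 in Cre- mice, Zpbp shows a smaller gap, and the points of the other genes lie close together.

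Ikzf1 itself had 12.06 and 11.99 in Cre+ mice, against 12.07 and 12.11 in Cre- mice. The groups did not overlap but were close. The difference was -0.07 (SE 0.04, adjusted p = 0.925 from limma over all rows). Where the probes lie relative to the floxed part was not analysed here, so this value does not check the deletion.

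Ddc, next to Fignl1 on its far side from Ikzf1 and read from the same strand, was at 5.63 and 5.75 in Cre+ mice and at 5.69 and 5.76 in Cre- mice. The groups overlapped. The difference was -0.04 (SE 0.09), with a 95% interval from limma of -0.28 to 0.20. Grb10 was at 5.75 and 5.64 in Cre+ mice and at 5.76 and 5.75 in Cre- mice. Its groups did not overlap, but the higher Cre+ mouse lay within 0.01 of both Cre- mice, and the difference of -0.06 (SE 0.09, interval -0.29 to 0.17) was smaller than the 0.11 between the Cre+ mice. Cobl, the farthest member on this side, was at 6.36 and 6.22 in Cre+ mice and at 6.44 and 6.20 in Cre- mice. Its 2 Cre- mice differed by 0.24 and enclosed both Cre+ mice. The difference of -0.03 (SE 0.13, interval -0.35 to 0.30) was negative in the female pair (-0.08) and positive in the male pair (0.03).

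Zpbp, on the other side of Ikzf1, was at 6.84 and 7.10 in Cre+ mice and at 7.32 and 7.37 in Cre- mice. Both Cre+ mice were lower than both Cre- mice, and mouse 129 was lower than mouse 135 by more than 135 was from the nearer Cre- mouse. The means were 6.97 ± 0.19 in Cre+ mice and 7.35 ± 0.035 in Cre- mice (SD, n = 2 each). The difference of -0.38 (SE 0.13, 1.30-fold lower, interval -0.71 to -0.06) did not pass limma's test over all 35556 rows (adjusted p = 0.664), nor among the 21789 rows with 1 gene symbol (adjusted p = 0.240). It was -0.49 between the females and -0.27 between the males. Vwc2, farther out, was at 6.25 and 6.12 in Cre+ mice and at 6.25 and 6.29 in Cre- mice. Its groups overlapped, with a difference of -0.08 (SE 0.10, interval -0.34 to 0.18).

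None of Ddc, Grb10, Cobl, Zpbp and Vwc2 was called by limma at an adjusted p under 0.05. Over all rows 0.0% were called, and among rows with 1 gene symbol 1.22%, again without any of these 5. At an unadjusted p under 0.05 limma had 1 of the 5, Zpbp, beside 6.86% of all genes and 6.63% of all rows. All 5 had lower means in Cre+ mice, as did 54.1% of all genes, with a median of -0.06 beside -0.01 over all genes. The sizes were small except for Zpbp, which was 155th from the lowest of the 19938 genes (0.777% at or below it). The groups did not overlap, with Cre+ lower, for 2 of the 5 (Grb10 and Zpbp) and for 20.3% of all genes. Each of the 5 intervals lay above -1.10, the difference of Fignl1 taken as a fixed value. That value was picked for its size, which can overstate it, and its own error is not in this comparison. The lowest end, that of Zpbp, was at -0.71. A difference as large as that of Fignl1 was therefore outside the interval of every one of these genes, and for Ddc, Grb10, Cobl and Vwc2 differences down to between -0.28 and -0.35 were inside. All 5 were above the 25th percentile of row means, but besides Fignl1 only Zpbp was above their median. Signal over background was not analysed here, and a change in a transcript near background would be understated for the 4 dimmer genes.

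**Figure D2:**
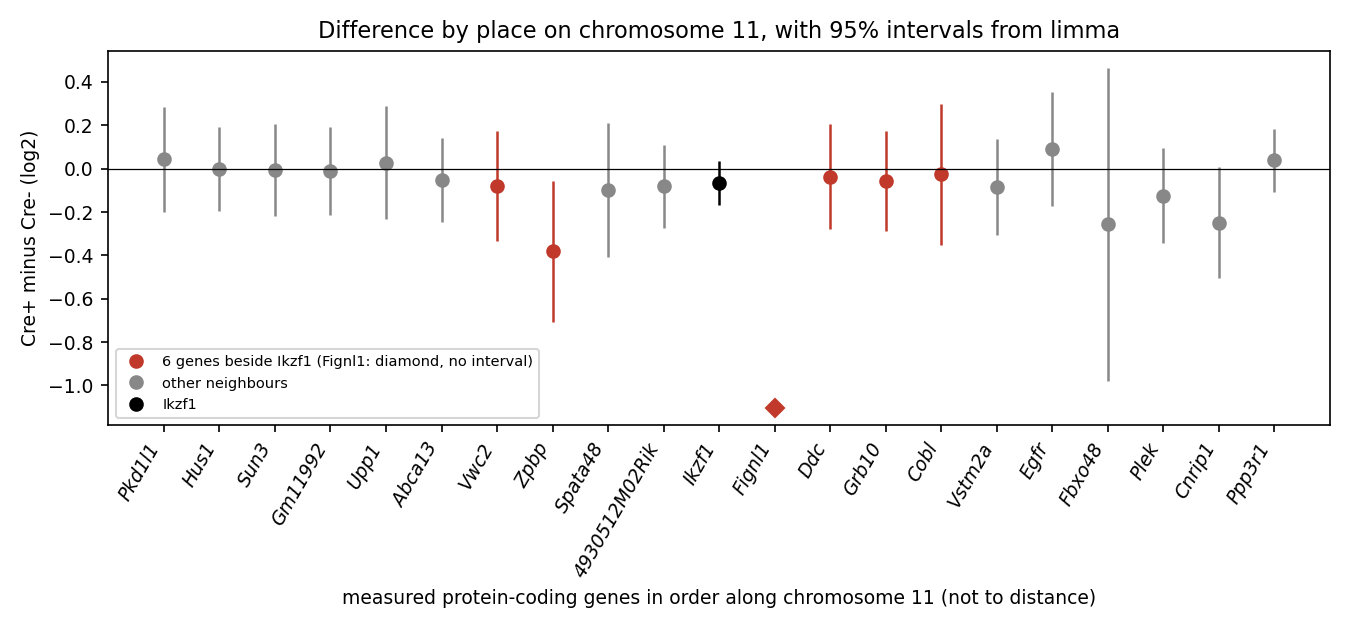
Cre+ minus Cre- (log2, vertical axis) of Ikzf1 and the 10 nearest measured protein-coding genes on each side, in order along chromosome 11; points are differences of means of 2 mice, lines are 95% intervals from limma, and Fignl1 (diamond) has no interval. Fignl1 at -1.10 lies below all the intervals, and its direct neighbours Ikzf1 and Ddc lie at -0.07 and -0.04.

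The neighbourhood was then widened to the 10 nearest measured protein-coding genes on each side, which adds 14 genes to the 6. None of the 14 was called by limma, over all rows (0.0% of rows called) or among rows with 1 gene symbol (1.22%). At an unadjusted p under 0.05 there were 0, beside 6.86% of all genes. Of the 14, 10 lay above the 25th percentile of row means and only 4 above the median, so changes in the dimmer ones could be understated. Means were lower in Cre+ mice for 10 of 14, beside 54.1% of all genes, with differences between -0.26 and 0.09 and a median of -0.03. That count depended on scaling, being 8 with arrays centred and 7 after quantile normalization or cyclic loess, and it was 6 without mouse 137. Between Ikzf1 and Zpbp, 4930512M02Rik differed by -0.08 (SE 0.07) and Spata48 by -0.10 (SE 0.12). Hus1, which encodes a subunit of the DNA damage checkpoint clamp, was at 10.10 and 10.26 in Cre+ mice and at 10.17 and 10.19 in Cre- mice, with overlapping groups and a difference of -0.00079 (SE 0.08).

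Beyond Cobl, Egfr, the epidermal growth factor receptor gene, differed by 0.09 (SE 0.10), and Plek, which encodes the protein kinase C substrate pleckstrin, by -0.12 (SE 0.08). Ppp3r1, which encodes the regulatory subunit of calcineurin, was at 10.27 and 10.28 in Cre+ mice and at 10.23 and 10.24 in Cre- mice, a difference of 0.04 (SE 0.06). Cnrip1 was at 6.64 and 6.75 in Cre+ mice and at 6.93 and 6.97 in Cre- mice. Its groups did not overlap and its difference was -0.25 (SE 0.10, adjusted p = 0.764 from limma). Fbxo48 had the lowest difference of the 14 at -0.26 (SE 0.28), and this rested on mouse 137, at 7.69, since mouse 131 was at 6.90 and the Cre+ mice at 6.91 and 7.16. Groups did not overlap, with Cre+ lower, for 4 of the 14 (4930512M02Rik, Vstm2a, Plek and Cnrip1), beside 20.3% of all genes, and with Cre+ higher for Ppp3r1, beside 16.1%. By difference, Fbxo48 was 401st and Cnrip1 432nd from the lowest of the 19938 genes. The 14 intervals also lay above -1.10, again taken as fixed, with the lowest end at -0.98 for Fbxo48.

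Of the 1563 measured genes on chromosome 11, Fignl1 had the lowest difference, and Itgae, the alpha E integrin gene, came next at -0.87. Fignl1 was picked for its low difference in these data, so this rank is a description only. The share with lower means was 54.3% on chromosome 11 and 54.1% over all genes.

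**Figure D3:**
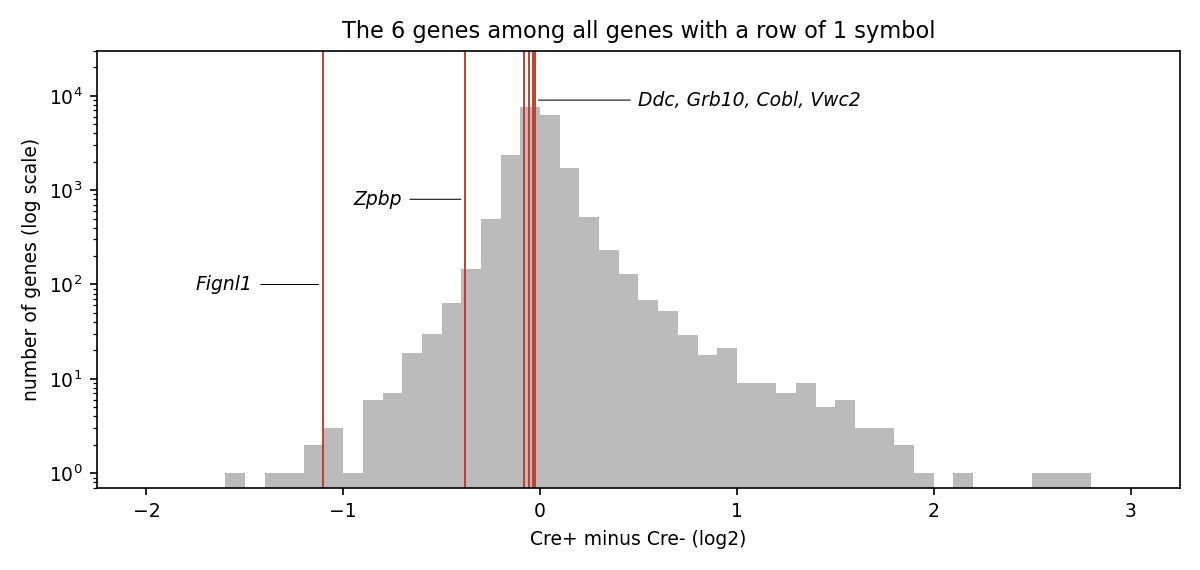
Number of genes (vertical axis, log scale) by Cre+ minus Cre- (log2, horizontal axis) for the 19938 genes with a row of 1 symbol; vertical lines mark the 6 genes. Fignl1 at -1.10 lies in the lower tail, Zpbp at -0.38 on its shoulder, and the other 4 in the centre between -0.08 and -0.03.

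Genes were ranked by likeness to Fignl1, as the root mean square difference of mean-centred log2 values over the 4 mice. These values were not scaled, so the order largely follows the difference that Fignl1 was picked for. The 5 nearest lay on other chromosomes, where most genes lie, since chromosome 11 held 1563 of the 19938. They were Nkg7 (0.033), which encodes a cytotoxic granule protein, the lectin receptor gene Clec12a (0.096), 1700048O20Rik (0.10), the tetraspanin gene Cd53 (0.16) and the acid-sensing receptor gene Gpr65 (0.17). They lie on chromosomes 7, 6, 9, 3 and 12. Nkg7 was at 8.88 and 8.91 in Cre+ mice and at 10.03 and 9.85 in Cre- mice, so that in both genes the Cre+ mice were nearly equal and mouse 131 was the highest. By the same measure Zpbp was 142nd of the other genes in order of likeness, near its place by difference (155th from the lowest). Ddc, Grb10, Cobl and Vwc2 came later, between 4148th and 7912th. Of the 3 natural killer markers, the sum of log2 values was 21.25 and 21.20 in Cre+ mice and 21.33 and 21.28 in Cre- mice. Ncr1 and Klrb1c, below the 25th percentile, enter this sum, so it can miss a change in such cells. Gzma, the marker of the 3 that was above that percentile, was at 12.31 and 12.25 in Cre+ mice and at 12.48 and 12.46 in Cre- mice. Its groups did not overlap, and its difference was -0.19 (SE 0.03, unadjusted p = 0.0024 and adjusted p = 0.327 from limma). The part of such cells in the value of Fignl1 was not tested.

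Of 20 measured genes of homologous recombination and partners of Fignl1 (24 listed), 10 had higher and 10 lower means in Cre+ mice, none had an unadjusted p under 0.05 in limma, and the median difference was -0.01, as over all genes. The range was -0.15 to 0.11. The helicase gene Blm was at 10.17 and 10.19 in Cre+ mice and at 10.30 and 10.34 in Cre- mice, a difference of -0.14 (SE 0.06). Rad52, an annealing factor, differed by 0.10 (SE 0.07), and Nbn, a subunit of the break sensor with MRE11 and RAD50, by 0.09 (SE 0.06). Among the 8 related AAA ATPases 4 were higher and 4 lower, none with an unadjusted p under 0.05. The fidgetin gene Fign differed by -0.12 (SE 0.09), the katanin-like Katnal2 by 0.12 (SE 0.09) and Vps4a, which acts in membrane scission, by 0.07 (SE 0.05).

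Genes around Grb10 in insulin and IGF receptor signalling were mixed, with 12 of 22 higher and a median of 0.02. None was called by limma over all rows or among rows with 1 gene symbol. The adaptor gene Irs1 was at 6.71 and 6.62 in Cre+ mice and at 6.22 and 6.24 in Cre- mice, a difference of 0.43 (SE 0.10, adjusted p = 0.427 from limma). The insulin receptor gene Insr differed by 0.30 (SE 0.09) and the IGF1 receptor gene Igf1r by 0.39 (SE 0.14). With Grb7, a paralogue of Grb10 named after its values were seen (0.27, SE 0.10), these were the 4 of 22 with an unadjusted p under 0.05, all with higher means, beside 6.86% of all genes. Igf1r was at 10.12 and 10.13 in Cre+ mice and at 9.53 and 9.94 in Cre- mice, so mouse 131 stood apart. Of 16 measured imprinted genes 8 were higher and 8 lower, with none at an unadjusted p under 0.05, and Igf2r, Phlda2 and Dlk1 differed by 0.15, 0.14 and 0.13.

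For aromatic amine synthesis and breakdown, around Ddc, 6 of 15 measured genes were higher and 9 lower (median -0.04), and none was called over all rows. At an unadjusted p under 0.05 there was 1 of 15, beside 6.86% of all genes. The 1 gene was Spr, which encodes sepiapterin reductase of cofactor synthesis. It was at 9.11 and 9.06 in Cre+ mice and at 8.75 and 8.79 in Cre- mice, a difference of 0.31 (SE 0.08, adjusted p = 0.509 from limma). Qdpr, which recycles the same cofactor, differed by -0.13 (SE 0.06) and the histidine decarboxylase gene Hdc by 0.18 (SE 0.09). For actin nucleation, around Cobl, 10 of 24 were higher and 14 lower (median -0.02), and none was called. At an unadjusted p under 0.05 there were 2 of 24, Wasf1 and Actr3, again beside 6.86% of all genes. The WAVE complex gene Wasf1 was at 7.23 and 6.997 in Cre+ mice and at 6.67 and 6.48 in Cre- mice, a difference of 0.54 (SE 0.13, adjusted p = 0.491 from limma). Actr3, a subunit of the Arp2/3 complex, differed by -0.11 (SE 0.04) and Dbnl, an actin-binding adaptor gene, by -0.12 (SE 0.06).

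Acrosome and sperm head genes, the company of Zpbp, showed 7 of 13 higher and 6 lower, all between -0.08 and 0.12 and none at an unadjusted p under 0.05. Acr, the acrosin gene, differed by 0.12 (SE 0.10), Zp3r by 0.08 (SE 0.07) and Spaca1 by -0.08 (SE 0.07). The difference of Zpbp was below this range. For BMP ligands, antagonists and receptors, around Vwc2, 11 of 20 were higher and 9 lower (median 0.01). Of the 20, 1 had an unadjusted p under 0.05 (Bmp7), beside 6.86% of all genes. The ligand gene Bmp7 was at 9.88 and 9.71 in Cre+ mice and at 9.12 and 9.34 in Cre- mice. Its difference of 0.56 (SE 0.11) did not pass over all rows (adjusted p = 0.382 from limma). It passed when limma was fitted again on rows with 1 gene symbol only (adjusted p = 0.0448), where 1.22% of rows were called. In that fit it was the one gene of these 8 lists to pass. The receptor gene Acvr1 differed by 0.22 (SE 0.11) and the antagonist gene Chrdl1 by -0.16 (SE 0.08).

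**Figure D4:**
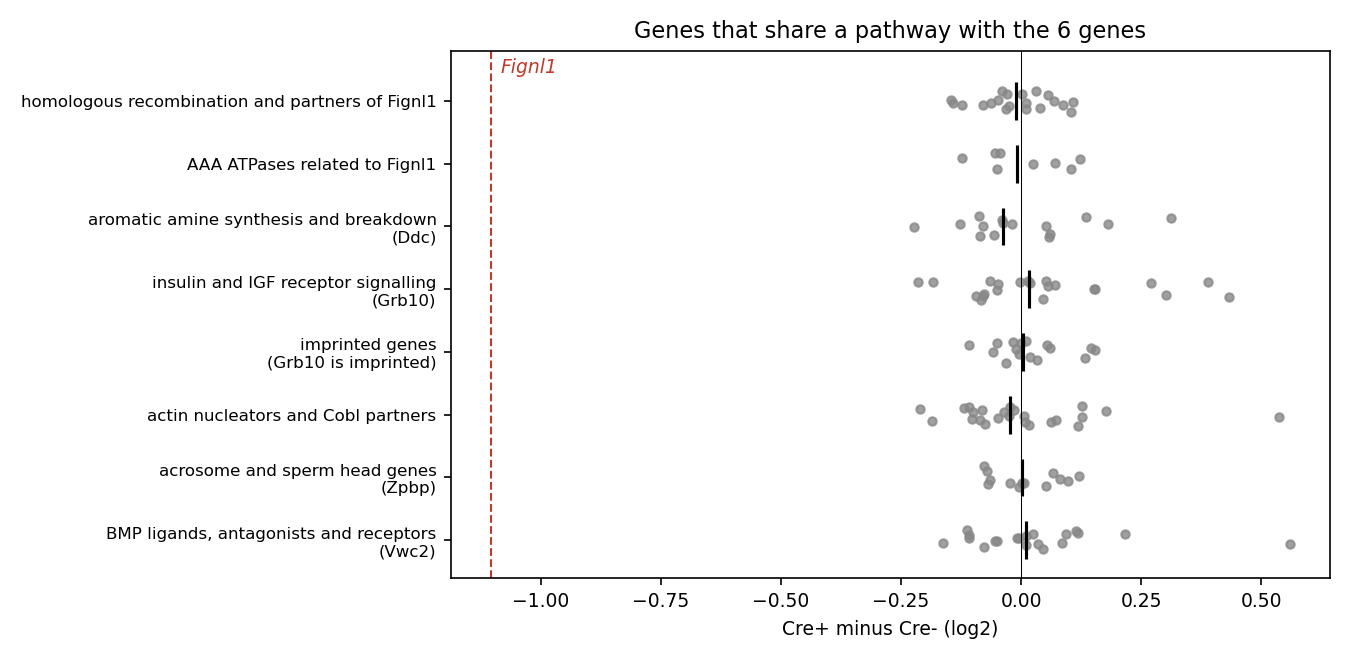
Cre+ minus Cre- (log2, horizontal axis) of the measured genes in 8 lists that share a pathway or family with the 6 genes; points are genes, black bars are list medians, and the dashed line marks Fignl1 at -1.10. The medians lie between -0.04 and 0.02, and no gene of any list comes near the dashed line, the lowest being at -0.22.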

How the data were processed

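The authors deposited RMA values, as the submitters' processing notes name the method, with 1 value for each array row and mouse. That these deposited values are on a log2 scale was read from their range (3.14 to 14.4). For RMA's version, filters and genome build, nothing is stated in these sources. Coordinates are therefore printed only for RefSeq promoter windows, on their own build. Rows were named through the platform annotation (21789 of 35556 with 1 symbol), and promoter windows and gene order come from RefSeq (GRCm38.p6). No further normalization was applied.

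Groups followed the titles. All 35556 rows were fitted with limma 3.58.1 in R 4.3.3 (eBayes with trend), as Cre+ minus Cre-, with Benjamini-Hochberg adjustment over all rows and a threshold of 0.05. The script was tested on simulated data. With 2 mice per group, p-values depend on the spread that limma pools over rows. Named genes were the members, the 10 nearest measured protein-coding genes on each side, the 3 smallest p in each list and the 5 genes most like Fignl1. Members and lists were chosen with earlier results of these data known. Alternatives covered scaling, filters, eBayes options, array weights, rows tested, sex and single mice.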

Additional observations from a re-analysis of the deposited data

How the results depend on the processing

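Fignl1 stayed between -1.17 and -1.03 over 15 settings, all of them on the arrays in which it was picked. Filters, eBayes options, the rows tested and sex as a block cannot move a difference of these means. For the size of the Fignl1 difference, those settings are therefore no check. In the 15 settings, 0 intervals of the other 5 members reached its difference, taken as fixed. Zpbp ranged from -0.51 to -0.25, with adjusted p between 0.240 and 0.9999 (limma). It had an unadjusted p under 0.05 in 12 of 15 settings, the exceptions being without mouse 129, 131 or 137. Leaving out single mice moved Ddc between -0.0971 and 0.0219 and Cobl between -0.148 and 0.0944. Ddc changed sign without mouse 129, and Cobl without mouse 135 (0.0428) or 131; no other difference of a member or of Ikzf1 changed sign, and no cause other than the mouse left out was tested. The number of the other members called was 0 in all settings, and that of the 14 wider neighbours too. Of the 5, 4 to 5 had lower means when single mice were left out, and 1 of the 1 left above the median of rows. Of the 14, 6 to 10 were lower without single mice, 6 of 10 above the 25th percentile and 3 of 4 above the median, where fewer genes were tested. Over all rows limma called 0, against 10 with arrays centred, 25 and 80 with the filters at the 25th percentile and the median, and 266 among rows with 1 gene symbol; the lowest adjusted p over all rows was 0.0570, and 2356 rows had an unadjusted p under 0.05. Each member had 1 row, so taking every row of a gene changed nothing. Mouse numbers are not shared between the groups and pair no mice. With sex as a block, which pairs 129 with 131 and 135 with 137, limma called 0 rows. Fignl1 was at -1.10 and Zpbp at -0.38 (adjusted p = 0.482), differences that this block leaves as they are, since each group held both sexes equally. The number of arrays and the dimness of Ddc, Grb10, Cobl and Vwc2, below the median row, limit what could be seen. The same holds for most of the 14 wider neighbours, of which 4 lay above the median row.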
